A study of Mus musculus with 8 samples.

Results

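The hypoxia response and glycolysis genes described here are a set of 32: the hypoxia-inducible factor (HIF) subunits Hif1a and Epas1, 13 HIF targets that act outside glycolysis, 3 glucose and lactate carriers, the glycolytic regulators Pfkfb3 and Pfkfb4, and 12 glycolytic enzymes. Each gene was read from 1 probe set that the array's annotation gives to that gene alone, the one with the highest mean over the 8 arrays where there were several. Of the 32 genes, 28 had such a probe set, and all 28 lay above the filter on low values. They are 28 of 15526 genes tested and of 22180 genes measured. Ankrd37 and Aldoa were read only by probe sets shared with another gene (Lrp2bp and Aldoart1), and Gpi1 and Eno1 were not listed in the annotation used here, so these 4 genes have no value. The annotation names Ero1l by its newer symbol, Ero1a.

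The samples were thoracic annulus fibrosus, the fibrocartilage ring of the intervertebral disc, from Black 6 mice of 4 groups with 2 Affymetrix arrays each: WT at 2 months, ENT1-null at 2 months, WT at 6 months and ENT1-null at 6 months. ENT1-null mice lack exons 2 to 4 of Slc29a1, the gene for ENT1, a protein of the cell membrane that lets adenosine and related nucleosides pass. No Cre or tissue-restricted allele is named in the labels, so the deletion is not described as limited to the disc. Each array held RNA pooled from 5 to 6 annulus tissues. The labels do not say if both pools of a group share mice, so the p-values reflect how much pools vary. Slc29a1, the check of the labels, was lower in ENT1-null by 1.41 ± 0.09 (limma adjusted p = 0.00724) at 2 months and by 1.53 ± 0.09 (limma adjusted p = 0.000354) at 6 months, and its 4 ENT1-null arrays (8.80 to 9.36, log2) lay below its 4 WT arrays (10.34 to 10.71). Which part of the gene the probe set reads was not examined. Array medians ran from 6.77 to 6.82 (log2), and the 2 arrays of a group correlated across genes at r of 0.983 to 0.984.

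HIF is a transcription factor made of an oxygen-regulated alpha subunit (HIF-1α from Hif1a, HIF-2α from Epas1) and a constant partner. When oxygen is ample, prolyl hydroxylases mark the alpha subunit for destruction, so that the amount of HIF is set mainly at the level of protein, which these arrays do not measure. When oxygen is short, HIF raises genes of blood vessel growth, of mitochondrial restraint, of glucose uptake and of nearly every step of glycolysis. The intervertebral disc has few blood vessels, and its cells are known to rely on HIF-1α and on glycolysis.

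HIF binds DNA at a short core, ACGTG or GCGTG, and the RefSeq promoter windows of the members were searched for it on both strands, over the 250 bases before each annotated start (GRCm38.p6). At least 1 window was held for 29 of the 32 genes (none for Epas1, Ndrg1 and Slc2a3), and 27 of the 29 (93.1%) had a match, against 41.5% of 27025 genes with a window. By window, 34 of 43 member windows (79.1%) held a match against 38.6% of all 32851 windows. The list was made to include HIF targets, so its higher share describes the list and is no test of it. The other genes were not matched to the members for base content or for number of windows. A match is a stretch of letters and not a measured binding site. The stretches printed next show that the core stands before members with each kind of value reported further on: Bnip3, Adm, Higd1a and Slc2a1, which were lower in 6 month ENT1-null annulus, Pfkfb4, which was higher, and Pgk1 and Ldha, which did not pass the test. Capitals mark the core on either strand (CACGT and CACGC are ACGTG and GCGTG read from the opposite strand, and matches may overlap), and each stretch reads 5′ to 3′ along its gene.
The Bnip3 stretch is chr7:138909512-138909648 (- strand), with 5 matches.
Bnip3: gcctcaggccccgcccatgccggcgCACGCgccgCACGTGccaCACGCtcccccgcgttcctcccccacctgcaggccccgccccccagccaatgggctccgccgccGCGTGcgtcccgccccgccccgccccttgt
The Adm stretch is chr7:110627542-110627632 (+ strand), with 2 matches.
Adm: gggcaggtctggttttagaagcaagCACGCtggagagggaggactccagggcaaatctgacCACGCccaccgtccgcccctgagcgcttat
The Higd1a stretch is chr9:121857833-121857891 (- strand), with 2 matches.
Higd1a: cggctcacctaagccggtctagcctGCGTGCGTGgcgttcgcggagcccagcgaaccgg
The Slc2a1 stretch is chr4:119108659-119108738 (+ strand), with 2 matches.
Slc2a1: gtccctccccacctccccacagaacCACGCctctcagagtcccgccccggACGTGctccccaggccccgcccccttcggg
The Pfkfb4 stretch is chr9:108991760-108991814 (+ strand), with 1 match.
Pfkfb4: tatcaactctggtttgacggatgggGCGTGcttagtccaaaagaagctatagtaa
The Pgk1 stretch is chrX:106186925-106186998 (+ strand), with 2 matches.
Pgk1: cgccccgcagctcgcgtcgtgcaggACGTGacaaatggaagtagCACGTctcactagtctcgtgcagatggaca
The Ldha stretch, from the first of its 2 windows, is chr7:46845634-46845799 (+ strand), with 5 matches.
Ldha: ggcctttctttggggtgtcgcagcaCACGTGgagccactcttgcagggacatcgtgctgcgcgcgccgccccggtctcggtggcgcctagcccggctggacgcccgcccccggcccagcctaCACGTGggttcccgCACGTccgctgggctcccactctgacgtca
By what the members did at 6 months, the core stood before 11 of the 12 members with a window that were lower (91.7%). The core also stood before all 3 with a window that were higher and all 10 with a window that were tested and not called. Slc2a3, which was higher too, had no window to search. By role, it stood before all 12 HIF targets outside glycolysis that have a window and before 10 of 12 enzymes (83.3%). The windows of Tpi1 and Gpi1 held no match.

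At 2 months no member passed the test in ENT1-null against WT (2 against 2 arrays), the comparison that asks what ENT1 loss changed in young annulus. A gene was called where its limma p-value, adjusted by the Benjamini-Hochberg method over all 15526 genes, was below 0.05, and over all genes 0.683% were called. The lowest adjusted p among the members was 0.101 (Slc2a3), and 5 members had an unadjusted limma p below 0.05. The 2 arrays of each genotype did not overlap for 15 of 28 members (53.6%), against 52.3% of all genes. The median log2 difference was −0.06 over the members and −0.04 over all genes.

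The largest differences at 2 months, none of them called, were in carriers and in a histone demethylase. Slc2a3 encodes GLUT3, a high-affinity glucose carrier. Its 2 month WT arrays read 7.51 and 7.96 and its ENT1-null arrays 8.28 and 8.26, a difference of 0.54 ± 0.14 (limma adjusted p = 0.101). Kdm3a, a HIF target that removes methyl groups from histone H3, read 9.52 and 9.33 on the WT arrays against 9.08 and 8.71 on the ENT1-null arrays, a difference of −0.53 ± 0.14 (limma adjusted p = 0.103). Slc16a3 encodes MCT4, the carrier that exports lactate from glycolytic cells. It read 9.02 and 9.10 on the WT arrays against 8.49 and 8.77 on the ENT1-null arrays, a difference of −0.43 ± 0.12 (limma adjusted p = 0.119). For these 3 genes the WT and ENT1-null arrays of that age did not overlap, ENT1-null being higher for Slc2a3 and lower for Kdm3a and Slc16a3. Hif1a, Vegfa, Tpi1, Pgk1 and Ldha gave 2 month differences between −0.08 and 0.02.

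At 6 months 17 of the 28 members (60.7%) were called in ENT1-null against WT, 13 lower and 4 higher. Over all genes 38.8% were called at that age, 17.6% lower and 21.2% higher, beside 46.4% lower and 14.3% higher among the members, which describes the list and is no test of it. WT and ENT1-null arrays were fully apart for 25 members (89.3%), against 72.3% of all genes. The median log2 difference was −0.31 over the members and −0.03 over all genes, and it was −0.69 over the 12 HIF targets outside glycolysis and −0.25 over the 9 enzymes. In bulk tissue, fewer cells of a type and less RNA per cell cannot be told apart. The levels of cell type markers differed between the same arrays, and they are given with the list means further on.

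**Figure D1:**
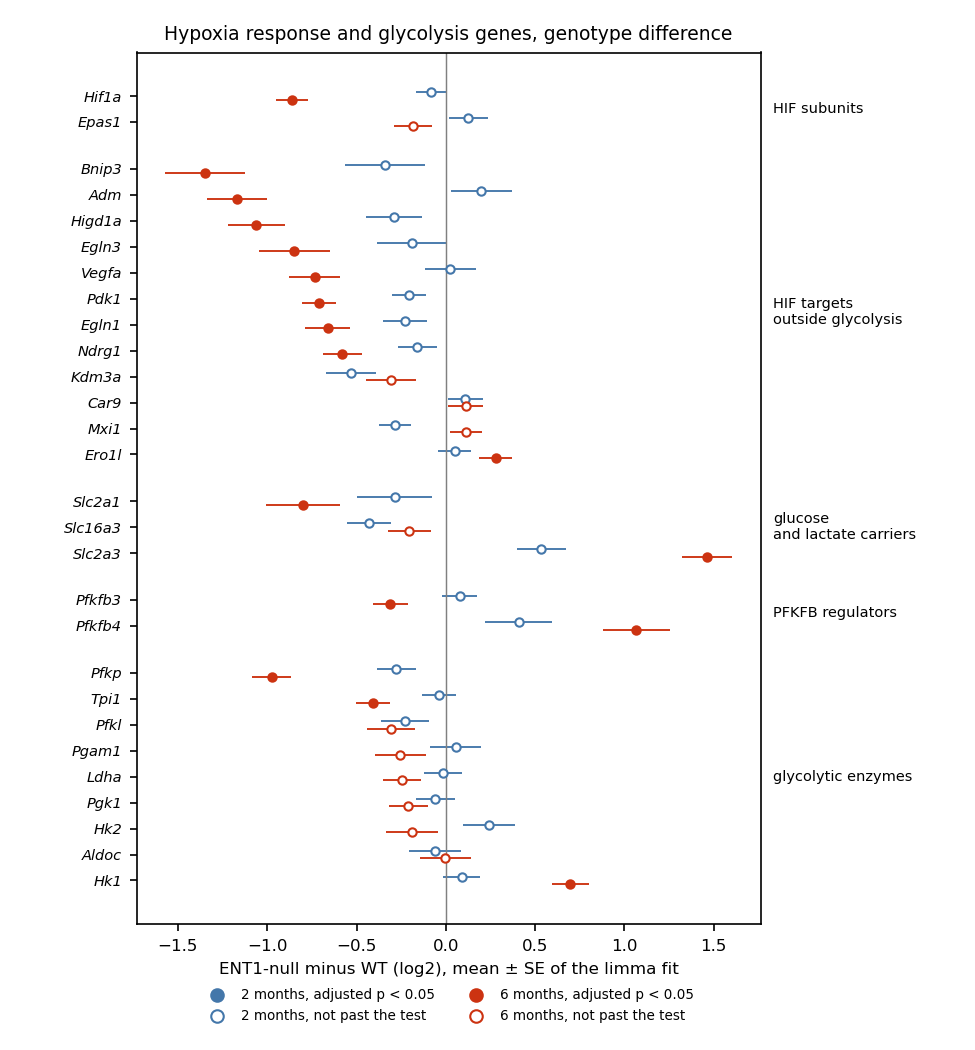
ENT1-null minus WT (log2, x axis) for the 28 measured members, grouped by role, at 2 months (blue) and 6 months (red); points are differences of group means, bars are the SE of the limma fit (2 against 2 arrays), and filled points passed adjusted p below 0.05. No 2 month point is filled, and at 6 months 13 filled points lie left of 0 (Bnip3 lowest, at −1.35) and 4 lie right of it (Slc2a3 highest, at 1.46).

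Of the 2 HIF alpha subunits, Hif1a was called at 6 months and Epas1 was not. Hif1a read 10.93 and 10.80 in 2 month WT, 10.81 and 10.77 in 2 month ENT1-null, 10.85 and 10.94 in 6 month WT, and 10.08 and 9.98 in 6 month ENT1-null arrays. The 6 month ENT1-null pair stood apart below the other 6 arrays, which lay within 10.77 to 10.94. Hif1a fell at 6 months by 0.86 ± 0.09, 1.82-fold (limma adjusted p = 0.000532), and its second probe set, with a mean of 7.30, gave −0.76. Epas1 read 9.76 and 9.93 in 2 month WT, 9.89 and 10.06 in 2 month ENT1-null, 9.91 and 9.92 in 6 month WT, and 9.83 and 9.63 in 6 month ENT1-null arrays. Its 6 month ENT1-null arrays were below the 6 month WT arrays but 1 of them lay within the range of the 4 WT arrays, and the difference of −0.18 ± 0.11 was not called (limma adjusted p = 0.218). Whether Hif1a and Epas1 differ from each other in their change was not tested.

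Among HIF targets outside glycolysis, 8 of the 12 measured were lower at 6 months, 1 was higher and 3 were not called. The shares over all genes at that age were 17.6% lower and 21.2% higher. The oxygen sensors come first. Egln1 and Egln3 encode the prolyl hydroxylases PHD2 and PHD3, which mark HIF alpha subunits for destruction and are themselves raised by HIF. Egln1 read 9.15 and 9.15 in 2 month WT, 8.88 and 8.97 in 2 month ENT1-null, 8.96 and 9.29 in 6 month WT, and 8.56 and 8.37 in 6 month ENT1-null arrays. ENT1-null was below WT at both ages without overlap, and only the 6 month fall of 0.66 ± 0.12 passed (limma adjusted p = 0.00493, against 0.365 at 2 months). Egln3 read 9.55 and 9.30 in 2 month WT, 9.30 and 9.17 in 2 month ENT1-null, 9.72 and 10.07 in 6 month WT, and 9.32 and 8.77 in 6 month ENT1-null arrays. The 6 month WT arrays were its highest, and 1 of the 2 ENT1-null arrays of that age lay within the range of the 2 month WT arrays. Egln3 fell by 0.85 ± 0.20 at 6 months (limma adjusted p = 0.0126), a call lost on leaving out the second replicate of 6 month WT (−0.67) or of 6 month ENT1-null (−0.57).

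The secreted products of the HIF response came next. Vegfa, the main growth factor of blood vessels, read 10.24 and 10.16 in 2 month WT, 10.26 and 10.19 in 2 month ENT1-null, 9.95 and 10.32 in 6 month WT, and 9.55 and 9.25 in 6 month ENT1-null arrays. The groups overlapped at 2 months (0.02 ± 0.14, limma adjusted p = 0.949), and at 6 months both ENT1-null arrays lay below all 4 WT arrays. Vegfa fell at 6 months by 0.74 ± 0.14, 1.67-fold (limma adjusted p = 0.00579). Adm encodes adrenomedullin, a peptide that widens blood vessels. It read 7.44 and 7.32 in 2 month WT, 7.79 and 7.37 in 2 month ENT1-null, 7.10 and 7.49 in 6 month WT, and 6.08 and 6.17 in 6 month ENT1-null arrays. The 2 lowest arrays were the 6 month ENT1-null pair, close to each other and apart from the other 6. Both values of that pair lay under the level of the filter on low values (6.21), which was applied to gene means. Adm fell at 6 months by 1.17 ± 0.17, 2.25-fold (limma adjusted p = 0.00159), after a difference of 0.20 ± 0.17 at 2 months (limma adjusted p = 0.559).

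Bnip3, Higd1a and Pdk1, HIF targets whose proteins act at mitochondria, fell at 6 months. Bnip3, which promotes the removal of mitochondria, read 10.13 and 10.11 in 2 month WT, 9.80 and 9.76 in 2 month ENT1-null, 9.98 and 10.20 in 6 month WT, and 9.14 and 8.34 in 6 month ENT1-null arrays. ENT1-null was below WT at both ages, and the 6 month ENT1-null arrays differed from each other by more than any other pair of Bnip3 replicates. Bnip3 fell at 6 months by 1.35 ± 0.22, 2.55-fold (limma adjusted p = 0.00284). Higd1a, a hypoxia-induced protein of the respiratory chain, read 8.76 and 8.76 in 2 month WT, 8.46 and 8.48 in 2 month ENT1-null, 8.85 and 9.16 in 6 month WT, and 8.16 and 7.72 in 6 month ENT1-null arrays. Its 4 ENT1-null arrays lay below its 4 WT arrays. The 6 month fall was 1.06 ± 0.16, 2.09-fold (limma adjusted p = 0.00179). Pdk1 encodes a kinase that shuts pyruvate dehydrogenase and so keeps pyruvate out of the citric acid cycle. It read 8.62 and 8.46 in 2 month WT, 8.39 and 8.28 in 2 month ENT1-null, 8.45 and 8.48 in 6 month WT, and 7.82 and 7.70 in 6 month ENT1-null arrays. ENT1-null lay below WT at each age, by 0.21 ± 0.09 at 2 months, which was not called (limma adjusted p = 0.283), and by 0.71 ± 0.09 at 6 months, which was (limma adjusted p = 0.00112). The other Pdk1 probe set was too dim for the filter (mean 3.71) and gave −0.06 at 6 months.

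The remaining targets outside glycolysis were mixed. Ndrg1, a stress-responsive gene raised by hypoxia, read 10.73 and 10.76 in 2 month WT, 10.60 and 10.58 in 2 month ENT1-null, 10.77 and 10.92 in 6 month WT, and 10.40 and 10.13 in 6 month ENT1-null arrays. The 4 ENT1-null arrays lay below the 4 WT arrays, and the 6 month fall was 0.58 ± 0.11 (limma adjusted p = 0.00487). The second Ndrg1 probe set, with a mean of 7.48, gave −0.32 and was not called (limma adjusted p = 0.0848 over all probe sets). Ero1l, an oxidase that helps form disulfide bonds in the endoplasmic reticulum, was the only target of this group called higher at 6 months. It read 9.64 and 9.81 in 6 month WT and 10.04 and 9.97 in 6 month ENT1-null arrays, a rise of 0.28 ± 0.09 (limma adjusted p = 0.0464). That call ended whichever of the 8 arrays was left out (0.19 to 0.37), and over 18 alternatives its adjusted p ran from 0.0331 to 0.237. Its second probe set, with a mean of 7.68, gave −0.014. Kdm3a (−0.31 ± 0.14), Mxi1, an antagonist of MYC (0.11 ± 0.09), and Car9, the carbonic anhydrase that handles acid at the surface of hypoxic cells (0.11 ± 0.10), were not called at 6 months, at limma adjusted p = 0.122, 0.348 and 0.399. Mxi1 has a second probe set, with a mean of 7.28, whose 6 month difference had the other sign (−0.20). The second Car9 probe set, with a mean of 6.74, gave 0.07.

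The glucose carriers moved in opposite directions. Slc2a1 encodes GLUT1, the basal glucose carrier of most cells and a classic HIF target. It read 11.47 and 11.40 in 2 month WT, 11.21 and 11.09 in 2 month ENT1-null, 11.20 and 11.47 in 6 month WT, and 10.88 and 10.19 in 6 month ENT1-null arrays. The 6 month ENT1-null arrays lay below the other 6 but far from each other. Slc2a1 fell by 0.80 ± 0.21, 1.74-fold (limma adjusted p = 0.0194), a call lost on leaving out the second replicate of 6 month WT (−0.66) or of 6 month ENT1-null (−0.45) and with only the groups compared in the fit (limma adjusted p = 0.0509). The other Slc2a1 probe set was too dim for the filter (mean 5.71) and gave 0.06. Slc2a3 read 7.93 and 7.84 in 6 month WT and 9.33 and 9.37 in 6 month ENT1-null arrays, and its 4 ENT1-null arrays lay above its 4 WT arrays. It rose at 6 months by 1.46 ± 0.14, 2.76-fold (limma adjusted p = 0.00045), the largest change among the 28 members at that age. GLUT3 is known from neurons and white blood cells. The mean of the neutrophil markers was 9.85 and 8.40 in 6 month WT and 11.66 and 11.62 in 6 month ENT1-null arrays. A relation of Slc2a3 to these markers was not tested. The lactate carrier Slc16a3 gave −0.20 ± 0.12 at 6 months and was not called (limma adjusted p = 0.227).

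Pfkfb3 and Pfkfb4, members that set fructose 2,6-bisphosphate, the strongest activator of phosphofructokinase, were called at 6 months with opposite signs. Pfkfb4 read 7.10 and 7.32 in 2 month WT, 7.65 and 7.59 in 2 month ENT1-null, 7.32 and 7.21 in 6 month WT, and 8.64 and 8.02 in 6 month ENT1-null arrays. Its 4 ENT1-null arrays were above its 4 WT arrays, and the 6 month rise was 1.07 ± 0.19, 2.10-fold (limma adjusted p = 0.00357). Pfkfb3 read 8.29 and 8.49 in 2 month WT, 8.50 and 8.43 in 2 month ENT1-null, 8.41 and 8.48 in 6 month WT, and 8.08 and 8.20 in 6 month ENT1-null arrays. The 6 month ENT1-null pair was the lowest, and the fall was 0.31 ± 0.10 (limma adjusted p = 0.0413). The Pfkfb3 call held in 7 of 18 alternatives and ended without any one of the 6 month arrays (−0.25 to −0.37) and without either 2 month ENT1-null array (−0.31).

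**Figure D2:**
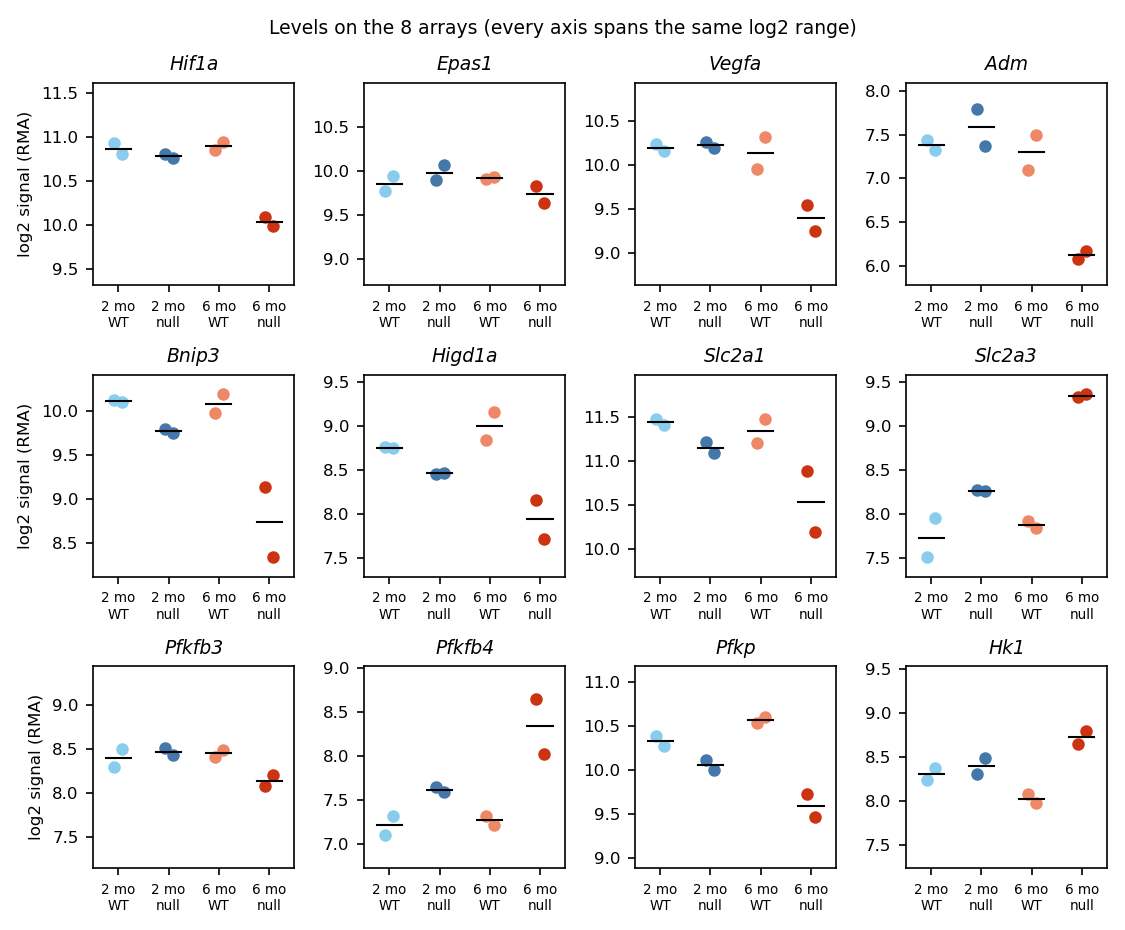
Log2 signal (y axis, every panel spanning the same range) of 12 members on each of the 8 arrays, by group (mo, months; null, ENT1-null); points are arrays and lines are group means. The 6 month ENT1-null arrays lie below all other arrays for Hif1a, Vegfa, Adm, Bnip3, Higd1a, Slc2a1, Pfkfb3 and Pfkp. They lie above all other arrays for Slc2a3, Pfkfb4 and Hk1. For Epas1 they lie below the 6 month WT arrays but not below all other arrays.

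Among the 9 measured enzymes, 2 were lower at 6 months, 1 was higher and 6 were not called. The shares over all genes at that age were 17.6% lower and 21.2% higher. Hexokinase, which traps glucose in the cell as glucose 6-phosphate, has 2 members here. Hk1, the form found in most tissues, read 8.24 and 8.37 in 2 month WT, 8.30 and 8.48 in 2 month ENT1-null, 8.07 and 7.97 in 6 month WT, and 8.65 and 8.79 in 6 month ENT1-null arrays. The 6 month ENT1-null arrays were its highest and the 6 month WT arrays its lowest, and Hk1 rose by 0.70 ± 0.10, 1.62-fold (limma adjusted p = 0.00173). Hk2, the form that HIF and insulin raise, read 7.99 and 8.06 in 6 month WT and 8.005 and 7.67 in 6 month ENT1-null arrays. These groups overlapped, and the difference of −0.19 ± 0.14 was not called (limma adjusted p = 0.333).

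Phosphofructokinase makes the first step committed to glycolysis. Pfkp, its platelet-type subunit, read 10.38 and 10.28 in 2 month WT, 10.11 and 9.9998 in 2 month ENT1-null, 10.54 and 10.61 in 6 month WT, and 9.73 and 9.46 in 6 month ENT1-null arrays. Its ENT1-null arrays lay below its WT arrays at both ages. Pfkp fell at 6 months by 0.98 ± 0.11, 1.97-fold (limma adjusted p = 0.000639), the largest fall among the 9 enzymes. Pfkl, the liver-type subunit, gave −0.31 ± 0.14 and was not called (limma adjusted p = 0.115).

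Of the measured enzymes of the later steps, Tpi1 was called. This enzyme, which interconverts the triose phosphates, read 11.52 and 11.67 in 6 month WT and 11.26 and 11.12 in 6 month ENT1-null arrays, and fell by 0.41 ± 0.09, 1.33-fold (limma adjusted p = 0.012). The groups did not overlap, and the call was lost on leaving out the second replicate of 6 month WT (−0.33) or of 6 month ENT1-null (−0.34). Ldha, which turns pyruvate into lactate, read 9.48 and 9.47 in 2 month WT, 9.38 and 9.54 in 2 month ENT1-null, 9.44 and 9.48 in 6 month WT, and 9.34 and 9.09 in 6 month ENT1-null arrays. Its 4 WT arrays lay within 0.036 of each other, and both 6 month ENT1-null arrays lay below them. The Ldha difference of −0.25 ± 0.11 was not called (limma adjusted p = 0.106). Pgk1, the first ATP-forming enzyme of the pathway (−0.21 ± 0.11), and Pgam1, a phosphoglycerate mutase (−0.26 ± 0.14), were not called either, at limma adjusted p = 0.165 and 0.197, and the second Pgam1 probe set, with a mean of 7.999, gave 0.12. Aldoc, the aldolase best known from brain, gave −0.0016 ± 0.14 (limma adjusted p = 0.994). A value that misses the threshold with 2 arrays per group does not show that a gene was unchanged.

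Enzymes were set against the other HIF targets by taking, on each array, the mean log2 level of the 9 enzymes minus that of the 12 targets outside glycolysis. That gap was 0.50 and 0.57 in 2 month WT, 0.54 and 0.76 in 2 month ENT1-null, 0.54 and 0.40 in 6 month WT, and 0.85 and 0.82 in 6 month ENT1-null arrays. The 6 month ENT1-null pair had the widest gaps of the 8 arrays. The size of the gap on 1 array has no meaning of its own, since different probe sets are involved, and only its change between groups is read. It was wider in ENT1-null than in WT by 0.37 at 6 months and by 0.12 at 2 months, against an SD between the arrays of a group of 0.10. At 6 months the targets were lower by 0.58 on average and the enzymes by 0.21. With medians over genes in place of means, the gap widened by 0.15 at 6 months and by 0.33 at 2 months, so that the order of the ages depends on that choice. Leaving out 2 month ENT1-null replicate 2 took the 2 month value to 0.01, and leaving out 2 month ENT1-null replicate 1 took it to 0.23.

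The mean level of the 12 HIF targets outside glycolysis was 9.19 and 9.10 in 2 month WT, 9.03 and 8.94 in 2 month ENT1-null, 9.03 and 9.27 in 6 month WT, and 8.68 and 8.47 in 6 month ENT1-null arrays. The mean level of the 12 annulus and cartilage markers, Acan, Sox9 and Comp among them, was 11.63 and 11.73, 11.41 and 11.56, 11.39 and 11.42, and 10.88 and 10.70 in the same order of groups. Both lists were at their lowest in the 6 month ENT1-null arrays. From 2 to 6 months in WT the median log2 difference was −0.20 over the annulus markers and −0.03 over the HIF targets. No gene of either list was called there, and whether the lists differ was not tested. Of these 12 markers 10 were lower in 6 month ENT1-null annulus and 1 was higher, with a median log2 difference of −0.72. Markers of blood-forming cells moved the other way. The mean of 15 neutrophil and granulocyte markers was 8.60 and 9.78 in 2 month WT, 10.51 and 10.88 in 2 month ENT1-null, 9.85 and 8.40 in 6 month WT, and 11.66 and 11.62 in 6 month ENT1-null arrays. All 15 were higher at 6 months (median log2 difference 2.59), as were all 7 measured of 12 erythroid markers (1.92). So were 9 of 10 tested macrophage markers (1.32) and 7 of 8 tested B cell markers (1.16). Of 8 endothelial markers 3 were higher (0.42), and of 5 tested adipocyte markers 1 was (0.37). Of 6 tested osteoblast markers 2 were higher and 2 lower (0.05). Over all genes 21.2% were higher and 17.6% lower at that age. The mean of 15 skeletal muscle markers ran from 8.10 to 10.22 over the WT and 2 month ENT1-null arrays and was 7.51 and 8.51 in 6 month ENT1-null arrays, and 13 of these were lower at 6 months. Of 10 nucleus pulposus and notochord markers, 7 were tested, with a median of −0.29 and 1 called, lower. The part of these cell types in the results on the members was not tested.

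**Figure D3:**
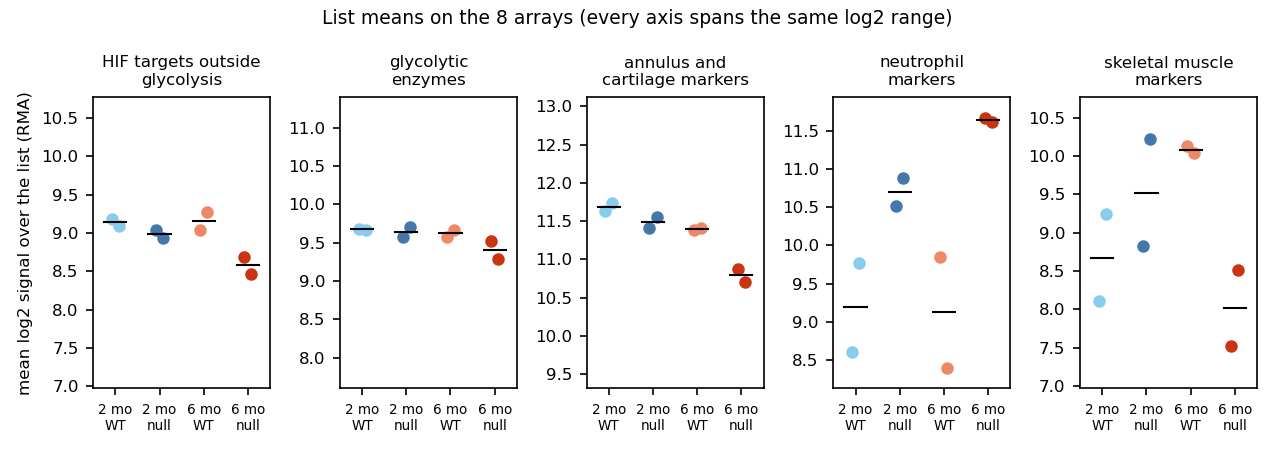
Mean log2 signal (y axis, every panel spanning the same range) over 12 HIF targets outside glycolysis, 9 glycolytic enzymes, 12 annulus and cartilage markers, 15 neutrophil markers and 15 skeletal muscle markers on each of the 8 arrays, by group (mo, months; null, ENT1-null); points are arrays and lines are group means. In 6 month ENT1-null arrays the HIF targets (8.68 and 8.47) and annulus markers (10.88 and 10.70) are at their lowest and the neutrophil markers (11.66 and 11.62) at their highest.

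Whether the effect of ENT1 loss differed between the ages was tested as the 6 month difference minus the 2 month difference, which uses the same arrays as the comparisons at each age. It was called for 4 of 28 members (14.3%), against 4.45% of all genes: 3 went lower (1.89% of all genes) and 1 higher (2.56%). Hif1a gave −0.78 ± 0.13 (limma adjusted p = 0.0383), Adm −1.37 ± 0.24 (0.0384) and Pfkp −0.70 ± 0.15 (0.0499). Slc2a3 gave 0.93 ± 0.20 (limma adjusted p = 0.0476). With arrays centred on their medians the calls were 2 lower and 2 higher, and with quantile normalization applied again they were 3 lower and 0 higher. Without 6 month WT replicate 1 only Hif1a and Adm were called, and without any other single array no member was. Vegfa (−0.76 ± 0.20, limma adjusted p = 0.0689), Pdk1 (−0.50 ± 0.13, 0.0678) and Hk1 (0.61 ± 0.15, 0.0553) came next and were not called.

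The effect of age was read within each genotype, from arrays that the comparisons of genotype also used. From 2 to 6 months in WT no member was called and no gene of the 15526 was (0%), while 7 members and 2067 genes had an unadjusted limma p below 0.05. Aldoc (−0.55, limma adjusted p = 0.257), Egln3 (0.47, 0.367) and Kdm3a (−0.45, 0.291) had the largest WT differences. In ENT1-null, 12 of 28 members (42.9%) were called against 22.2% of all genes, with 10 lower (10.2% of all genes) and 2 higher (11.9%). The split was 8 lower and 3 higher with arrays centred on their medians. Adm (−1.45 ± 0.17, limma adjusted p = 0.00293), Bnip3 (−1.04 ± 0.22, 0.0161), Vegfa (−0.82 ± 0.14, 0.00772), Hif1a (−0.75 ± 0.09, 0.00293) and Pdk1 (−0.58 ± 0.09, 0.00632) fell the most among called members, while Slc2a1 gave −0.61 ± 0.21 and was not called (0.0745). Pfkp (−0.46, limma adjusted p = 0.0224) and Tpi1 (−0.37, 0.0286) fell too, and each call held in 13 of 18 alternatives. Egln1 (−0.46, limma adjusted p = 0.0355), Pfkfb3 (−0.33, 0.0495) and Aldoc (−0.49, 0.0477) passed more narrowly: their calls held in 8, 6 and 5 of 18 alternatives and were lost with no filter, with all probe sets and with the replicate block. The Aldoc difference was near its WT difference, which was not called. Slc2a3 (1.08 ± 0.14, limma adjusted p = 0.00344) and Pfkfb4 (0.72 ± 0.19, 0.0309) rose. Leaving out either 2 month ENT1-null array left 5 members called, and leaving out the second 6 month ENT1-null array left 7. Bnip3 was −0.64 without 6 month ENT1-null replicate 2 and Pfkfb4 0.41 without 6 month ENT1-null replicate 1.

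Genes of the pathway that are not members were taken from 3 lists. Of 16 other regulators of HIF, 15 were tested. At 6 months 4 were lower and none was higher, with a median log2 difference of −0.02. The shares over all genes at that age were 17.6% lower and 21.2% higher. Arnt, the constant partner of the HIF alpha subunits, fell by 0.27 ± 0.09 (limma adjusted p = 0.0428). Hif3a, an alpha subunit that can restrain the others, fell by 0.41 ± 0.12 (0.036), Siah2, a ubiquitin ligase that removes prolyl hydroxylases, by 0.38 ± 0.11 (0.0325), and P4htm, a membrane-bound prolyl hydroxylase, by 0.37 ± 0.10 (0.0269). Vhl, which recognises hydroxylated HIF, gave 0.18, and Hif1an, the asparagine hydroxylase of HIF, gave −0.14. Neither was called, and both were picked with their values in view (limma adjusted p = 0.233 and 0.31).

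Of 32 other HIF and hypoxia targets, 29 were tested. At 6 months 13 were lower and 4 higher, against 17.6% lower and 21.2% higher over all genes. The median log2 difference was −0.28. The lower genes with the strongest statistics included 2 enzymes that modify collagen. Plod2, a collagen lysyl hydroxylase, read 11.83 and 11.89 in 6 month WT and 10.65 and 10.51 in 6 month ENT1-null arrays, a fall of 1.27 ± 0.12 (limma adjusted p = 0.00044). P4ha2, a subunit of collagen prolyl hydroxylase, read 9.64 and 9.66 on the WT arrays of that age against 8.57 and 8.07 on the ENT1-null arrays, a fall of 1.33 ± 0.15 (0.000645). For both genes the 4 ENT1-null arrays of the study lay below the 4 WT arrays. Rora, a nuclear receptor of the circadian clock, fell by 1.04 ± 0.12 and Bhlhe41, a repressor of the same clock, by 0.93 ± 0.10 (limma adjusted p = 0.000631 and 0.000542). The 4 higher genes were Cxcr4, a chemokine receptor of white blood cells and their precursors (2.27 ± 0.38), Hmox1, which breaks down haem (2.03 ± 0.31), Tfrc, the receptor for transferrin iron (1.66 ± 0.17), and Ccng2, a cyclin that slows the cell cycle (0.60 ± 0.08). Cxcr4 read 8.96 and 7.88 in 6 month WT and 10.70 and 10.68 in 6 month ENT1-null arrays, with the lower WT array the one in which the neutrophil markers were also lower (8.40 against 9.85), a relation that was not tested. At 2 months 1 gene of this list was called: Stc2, a secreted glycoprotein, which was chosen after its values were seen, fell by 1.22 ± 0.13 (limma adjusted p = 0.0285).

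Of 24 other glycolysis genes and isoforms, 18 were tested, 3 lay below the filter and 3 had no single-gene probe set. At 6 months 6 were higher and 4 lower, against 21.2% higher and 17.6% lower over all genes. The median log2 difference was −0.12. Slc16a1, which encodes the monocarboxylate carrier MCT1, read 8.18 and 8.39 in 2 month WT, 9.34 and 9.26 in 2 month ENT1-null, 8.99 and 8.83 in 6 month WT, and 10.30 and 10.58 in 6 month ENT1-null arrays. ENT1-null was above WT at each age, and Slc16a1 rose by 1.01 ± 0.12 at 2 months (limma adjusted p = 0.0393) and by 1.53 ± 0.12 at 6 months (0.000383). Hk3, the hexokinase of white blood cells, rose by 1.87 ± 0.21, Pklr, the pyruvate kinase of liver and red cells, by 1.17 ± 0.20, and Slc16a7, the carrier MCT2, by 0.68 ± 0.13, all at 6 months (limma adjusted p = 0.000618, 0.00321 and 0.00523). Eno3 and Pgam2, the muscle forms of enolase and phosphoglycerate mutase, fell by 1.73 ± 0.52 and 1.12 ± 0.38 (limma adjusted p = 0.0332 and 0.0499). On the 2 month WT arrays Eno3 read 8.83 and 10.09, where the mean of the muscle markers was 8.10 and 9.24. On the 6 month ENT1-null arrays Eno3 read 8.55 and 9.46, where that mean was 7.51 and 8.51. Whether Eno3 and these markers vary together over the arrays was not tested. Pdk4 and Pdk2, kinases of pyruvate dehydrogenase like the member Pdk1, fell by 1.06 ± 0.19 and 0.65 ± 0.14 (limma adjusted p = 0.00401 and 0.0102). Gapdh and Pkm, central enzymes of the pathway chosen after their values were seen, gave −0.08 ± 0.08 and −0.15 ± 0.13 and were not called (limma adjusted p = 0.444 and 0.391).

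**Figure D4:**
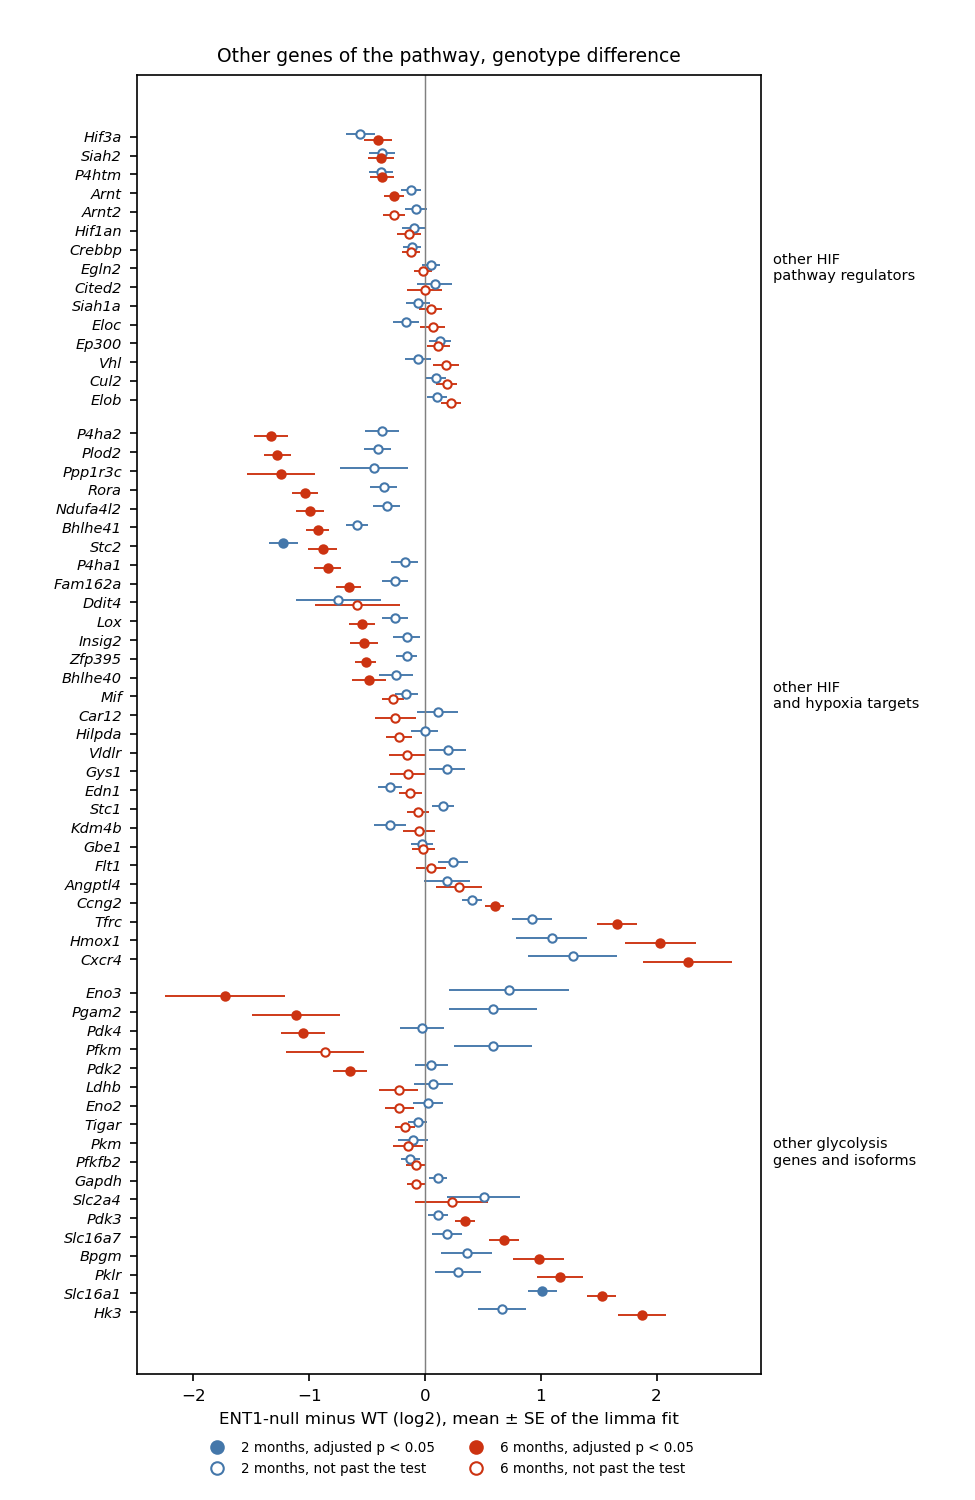
ENT1-null minus WT (log2, x axis) for the tested genes of the 3 lists of other pathway genes, at 2 months (blue) and 6 months (red); points are differences of group means, bars are the SE of the limma fit (2 against 2 arrays), and filled points passed adjusted p below 0.05. At 2 months Stc2 (−1.22) and Slc16a1 (1.01) are filled, and at 6 months the other HIF and hypoxia targets run from P4ha2 (−1.33) to Cxcr4 (2.27).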

How the data were processed

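RNA of 8 pools of thoracic annulus fibrosus was measured on 8 Affymetrix arrays. The deposited values are log2 signals, 1 per probe set and array, made by the authors with RMA per the submitters' processing notes (background correction, quantile normalization, 1 summary for the probes of a set). Neither the RMA version nor the array's genome build is given in the sources used here.

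The annotation gave 1 gene to 23521 of 41345 probe sets, several to 1814 and none to 16010. The brightest single-gene probe set stood for a gene, and genes whose mean was under the 30th percentile (6.21, log2) were dropped. limma 3.58.1 in R 4.3.3 fitted 4 group means (4 residual degrees of freedom) to all 15526 remaining genes, with eBayes and Benjamini-Hochberg adjustment in each of 5 comparisons. Differences carry the SE of that fit. The scripts were tested on simulated data. With 2 against 2 arrays an exact permutation test cannot go below a two-sided p of 0.333, so the gap between enzymes and targets has no test. Promoter windows came from RefSeq (GRCm38.p6).

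Values on every array are given for members called with a log2 difference of at least 0.5, for Hif1a, Epas1 and Vegfa, and for some others. Up to 4 called genes per direction were named from each pathway list by their 6 month statistic. The members and lists were chosen with earlier results of these data known, and no count of them is independent support.

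Alternatives changed the filter (none, 50th percentile), the scaling (quantiles again, centring on medians), the probe sets tested (all), the model (replicate block, eBayes trend with robust, only the groups compared), the threshold (2 others), the gap (medians over genes) or the arrays (each left out in turn). All 8 arrays entered the reported values, and nothing was imputed.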

Additional observations from a re-analysis of the deposited data

Results flagged for a closer look

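For 4 members the effect of ENT1 loss differed between 2 and 6 months by the test of the difference itself (limma, 6 month effect minus 2 month effect). Hif1a gave −0.78 (log2), with a genotype difference of −0.08 at 2 and −0.86 at 6 months. Adm gave −1.37, from 0.20 to −1.17, and its sign at 2 months turned (−0.0098) without 2 month ENT1-null replicate 1. Pfkp gave −0.70, from −0.28 to −0.98. Slc2a3 gave 0.93, from 0.54 to 1.46. Adjusted p-values lay between 0.0383 and 0.0499, and without 7 of the 8 arrays in turn, 6 month WT replicate 1 being the exception, none of the 4 was called.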

How the results depend on the processing

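The 6 month count of 17 called members stayed within 12 and 18 over all alternatives, with 12 on leaving out the second replicate of 6 month WT or of 6 month ENT1-null. Hif1a, Egln1, Vegfa, Adm, Bnip3, Pdk1, Higd1a, Slc2a3, Pfkfb4, Hk1 and Pfkp were called at 6 months under every alternative in which they were tested (Adm was under the 50th percentile filter). Ndrg1 was lost only at the 1.5-fold threshold. At 2 months the count of 0 was kept but for leaving out single arrays, which gave 0 to 1 (1 without 2 month WT replicate 2). No alternative gave a call by age in WT. The 4 calls of the difference between ages became 0 without a filter and with all probe sets, 1 with the replicate block, 10 at adjusted p below 0.1, 10 at unadjusted p below 0.05 with at least 1.5-fold, and 0 to 2 on leaving out single arrays. The 12 calls by age in ENT1-null became 7 with only the groups compared, 7 at unadjusted p below 0.05 with at least 1.5-fold, and 5 to 13 on leaving out single arrays. For the difference between ages, a fit of only the groups compared is the fit of all 8 arrays and was not run apart. The enzyme gap, with medians over genes, was 0.33 at 2 and 0.15 at 6 months, and on leaving out single arrays 0.012 to 0.23 at 2 months.

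The labels do not say if the replicate numbers pair the arrays. Deviations of same-numbered arrays correlated at −0.395 to 0.415 over the 6 pairs of groups. The highest was that of 2 month WT and 2 month ENT1-null. With 2 arrays per group these values cannot settle if any arrays are paired. With the replicate block, 16 members were called at 6 months, 9 by age in ENT1-null and 0 at 2 months.

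No called value changed sign. Of values not called, Aldoc at 6 months was 0.034 with centred arrays, and leaving out single arrays gave −0.159 to 0.156 there. At 2 months it gave −0.0178 to 0.0669 for Vegfa, −0.0098 to 0.409 for Adm, −0.0253 to 0.180 for Pfkfb3, −0.202 to 0.0809 for Aldoc, −0.0825 to 0.0059 for Tpi1, −0.119 to 0.0031 for Pgk1 and −0.099 to 0.0672 for Ldha. The causes of these moves were not tested.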
